A study of Heliconoides inflatus with 11 samples.

Results

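The transcripts described here are those with 4 or more alternative assembled sequences listed in the authors' deposited table. They were measured in whole Heliconoides inflatus, a shelled pteropod (a small planktonic snail that builds its shell from aragonite). In the authors' deposited table each row is a contig, an assembled transcript sequence, whose name gives a component number and a sequence number. Members were all contigs of components with 4 or more contigs in that table, 1140 of 21744 contigs (5.24%) from 249 of 17715 components (1.41%). The rule used only the names of listed contigs, and no measured value. Filters that decided which contigs are listed were not stated, so whether abundance affected membership is not known.

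Animals were caught in a 200 µm plankton net and kept for 3 d in filtered seawater at pH 8.1, bubbled with ambient air, or at pH 7.9, bubbled with CO2. Each condition had 3 replicate jars, whose animals were collected together, so that a sample is a pool of wild animals of unstated number. Per the labels, the 6 samples gave 11 sequencing runs, 6 for pH 8.1 and 5 for pH 7.9, because 1 low-pH sample was sequenced in 1 run. Nothing in the table is given per sample: it lists a mean abundance, a fold change, a likelihood ratio and its p-values for each contig. The numerator of the fold change is not named in it, so directions are given as positive or negative fold change.

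A transcript assembler joins overlapping reads into a graph and writes out the paths through it. Where the graph branches, it writes alternative contigs of the same component, and such branches can come from alternative splicing, from allelic differences among pooled animals, from close gene copies or from sequencing errors. Reads that match a stretch common to several contigs have to be divided among them by the counting step, whose rule is not given in the sources used here. Contigs of 1 component are therefore not independent measurements. Contigs carry no gene names in the table, so that neither genes nor pathways are named, and the tissue label could not be checked against markers.

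Most of the 249 components were just at the threshold. The table held 181 components with 4 contigs, 33 with 5, 17 with 6, 5 with 7 and 9 with 8, and 1 each with 9, 10, 11 and 12 contigs. The sequence numbers in the names ran higher than the number of contigs listed. The highest number in a component had a median of 9 and reached 59, and the listed contigs took up 37.0% of the numbers up to the highest one of their component. In 37 components all numbers up to the highest one were listed. Numbers that are not listed were not analysed here.

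Members were of modest abundance. Mean abundance in the authors' deposited table is in log2 CPM (read counts of a contig scaled to a common library total, on a log2 scale), and its median was 1.64 over the members and 2.14 over all contigs. The members ranged from -2.18 to 8.23 log2 CPM, whereas the whole table reached 16.01. They held 1.16% of the summed CPM. The summed CPM of a component had a median of 16.0 with quartiles of 6.80 and 45.1, and ran from 1.10 to 951.3. CPM is not scaled to contig length, and lengths are not known here, so the shares below are shares of the reads and not of the transcript molecules. They are shares of the reads of the listed contigs only, since contigs of a component that are not listed have no values here.

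Alternative contigs were often almost equally abundant. The range of log2 CPM between the most and the least abundant contig of a component had a median of 0.43 over the 249 components, with quartiles of 0.12 and 1.53, and extended from 0.0049 to 5.69. The SD of log2 CPM within a component had a median of 0.19. In 103 components the range was under 0.25, a limit set after the values were seen, and 97 of these had 4 contigs. That was 53.6% of the components with 4 contigs, against 15.2% of those with 5 (5 of 33) and 3.23% of those with 6 to 8 (1 of 31). Just outside the rule, components with 3 contigs had a median range of 0.83, with 27.1% under 0.25, and those with 2 contigs had 0.19, with 54.3%. Within the members, the median range was 0.21 with 4 contigs, 0.99 with 5, 1.42 with 6, 2.50 with 7 and 2.47 with 8. The single components with 9, 10, 11 and 12 contigs had ranges of 5.41, 0.52, 2.42 and 1.38. The spread thus mostly grew from 4 to 8 contigs, but components with 3 contigs had a wider median range than those with 4.

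At the other end, the lowest contig was at least 2-fold below the dominant one in 90 components, at least 4-fold in 46 and at least 16-fold in 12. The widest spread was found in comp501796_c0, whose 6 contigs spanned a range of 5.69. Its dominant contig had 12.9 CPM and held 79.1% of the reads of its listed contigs. The other 5 contigs had 0.911, 0.882, 0.816, 0.556 and 0.249 CPM. The narrowest was comp505439_c0, whose 4 contigs had 3.33, 3.32, 3.32 and 3.32 CPM. Both were picked for these extremes.

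**Figure D1:**
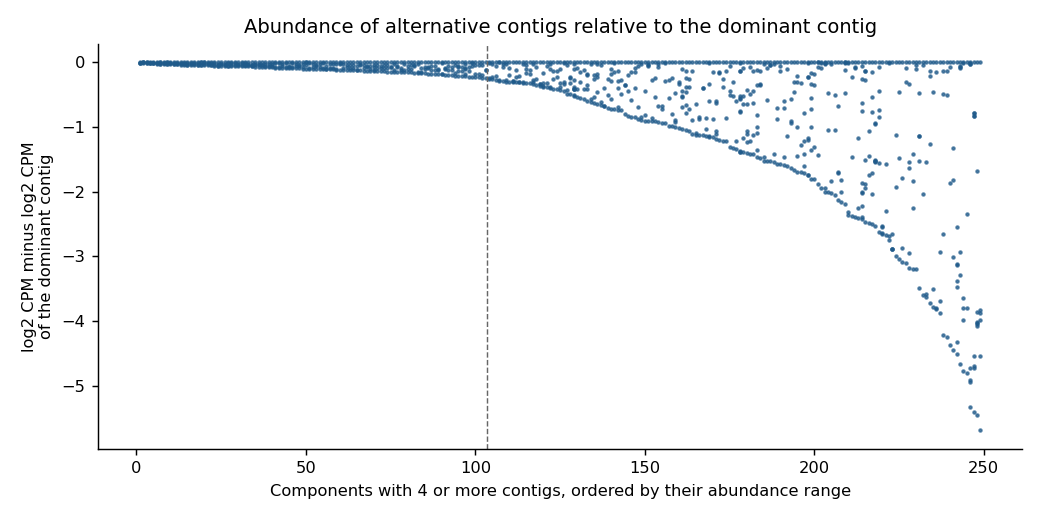
Each point is 1 of 1140 contigs, placed by the difference between its log2 CPM and that of the dominant contig of its component (vertical axis); the 249 components are ordered by their abundance range (horizontal axis). The 103 components left of the dashed line have a range under 0.25, and the spread then widens to 5.69.

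The most abundant listed contig of a component, called dominant here, seldom dominated the listed contigs. Its share of the summed CPM had a median of 26.5%, with quartiles of 25.4 and 32.5%. The share is bounded from below by the equal share, which is 25% for 4 contigs, and relative to the equal share of each component the median was 1.16. In 134 components the dominant contig held less than 1.2 times the equal share, in 58 at least 1.5 times and in 23 at least 2 times. It held 50% or more in 16 components and 70% or more in 3. It was at least 2-fold above the second contig in 16 components, and the median ratio of first to second was 1.04. By size, the median share was 26.8% with 4 contigs (1.07 times equal), 26.0% with 5 (1.30 times) and 24.2% with 6 to 8 (1.60 times). Components with 3 contigs had a median share of 41.6% (1.25 times equal) and those with 2 had 53.3% (1.07 times). The dominant contig carried the lowest listed sequence number in 49 of the 249 components.

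**Figure D2:**
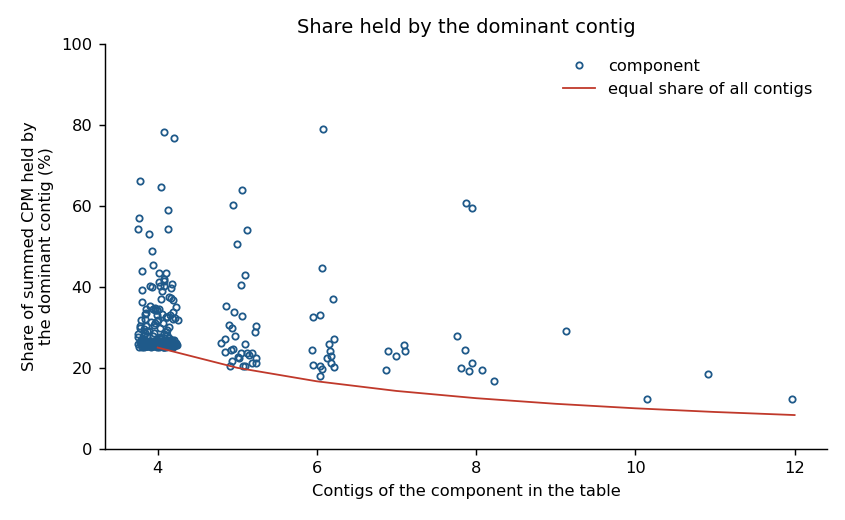
Share of the summed CPM held by the dominant contig (%) against the number of contigs of the component, 1 circle per component with sideways jitter; the line is the equal share. Most of the 181 components with 4 contigs lie close to 25%, and 16 of the 249 components reach 50%.

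Some contigs repeated the values of another. Within 0.01 (log2) in both abundance and fold change, 57 of the 891 minor contigs (6.40%) repeated a more abundant contig of their component, in 36 components. In comp470914_c0, the component with the smallest range of fold changes, 3 of 4 contigs were listed at the same 13.0 CPM and the same log2 fold change of 0.36 in the authors' deposited table, and the other contig differed from them by 0.00082 in fold change. In comp477667_c2, seq23 and seq59 both stood at -1.32 log2 CPM and a log2 fold change of 0.19 in the authors' deposited table. Such contigs count several times in any count over contigs.

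Between the conditions, 32 members (2.81%) passed an adjusted p of 0.05 in the edgeR likelihood ratio test of the authors' deposited table and are called here, against 2.64% of all 21744 contigs. The share was thus near the background. By direction, 31 calls were positive (2.72% of members, against 1.84% of all contigs) and 1 was negative (0.0877%, against 0.796%). The 32 calls came from 14 components, so they stand for far fewer transcripts than contigs. Among components, 14 of 249 (5.62%) held a called contig, against 2.82% of all components, but a component with more contigs has more chances to hold one. The share was 3.70% of components with 2 contigs, 3.39% with 3, 4.42% with 4 (8 of 181), 12.1% with 5 (4 of 33) and 6.45% with 6 to 8 (2 of 31), and 0 of the 4 components with 9 to 12 contigs held a call. At an unadjusted p under 0.05 there were 230 members from 72 components (20.2%, against 14.7% of all contigs). Of these, 174 were positive (15.3%, against 9.82%) and 56 negative (4.91%, against 4.85%). How the repeat runs entered the authors' test is not stated; if they entered as separate columns, the p-values are too small. With the likelihood ratios scaled down to the number of samples, 6 of the 32 calls were left, the 4 contigs of comp493301_c0 and the contigs seq6 and seq9 of comp489381_c2. The other 26 then had adjusted p-values from 0.0966 to 0.668.

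Called members had absolute log2 fold changes from 1.41 to 5.85 with a median of 2.45, and 2.89 was the median over all called contigs. They lay between -1.17 and 4.12 log2 CPM. None of the 31 members at 6 log2 CPM or more was called, and 0.881% of all contigs of that abundance were. From 2 to 4 log2 CPM, 15 of 324 members were called (4.63%, against 2.83% of all contigs there). Contigs of 1 component are counted separately in this, such as all 4 of comp493301_c0. Below 0 log2 CPM it was 6 of 284 (2.11%, against 2.87%), and from 0 to 2 log2 CPM 9 of 356 (2.53%, against 3.30%). A count model adds a small count to every library, which limits the fold change where a group has no reads. That limit was estimated from the 3 contigs of each sign with the largest fold change relative to abundance, at 1 log2 CPM or more. No called member lay within 0.25 (log2) of it or beyond it. The estimate may not hold for the 6 called members below 0 log2 CPM. Whether a group had no reads could not be checked without counts per sample.

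Minor contigs mostly moved with their dominant contig. The log2 fold change of a minor contig had the sign of the dominant one in 805 of 891 cases (90.3%), and in 205 of 249 components (82.3%) all contigs had 1 sign. For minor contigs of components with 3 contigs the share was 85.0%, and with 2 contigs 89.5%. Across the 891 minor contigs, minor and dominant fold changes had a Pearson correlation of 0.80 and a Spearman correlation of 0.85. The points of 1 component share the dominant value, and contigs of 1 component can share reads, so this describes the table and carries no p. The absolute difference between minor and dominant log2 fold change had a median of 0.08 and quartiles of 0.02 and 0.28, and 486 minor contigs (54.5%) lay within 0.1 of their dominant contig.

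Opposite signs arose mainly where a fold change was close to 0. Of the 86 minor contigs against their dominant contig, in 44 components, the smaller of both absolute log2 fold changes had a median of 0.14. Both were at least 0.5 in 10 cases from 8 components, and both were at least 1 in 4 cases from 2 components, comp498408_c0 and comp494582_c0. Contigs that went against were scarcer, with a median of -0.12 log2 CPM against 1.60 for those with the same sign, and 44 of the 86 were below 0 log2 CPM. In 8 components all minor contigs had the opposite sign. Where the dominant contig had an absolute log2 fold change of at least 1 (54 components), 193 of 201 minor contigs had its sign (96.0%), and 134 of these were smaller in size than the dominant contig.

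**Figure D3:**
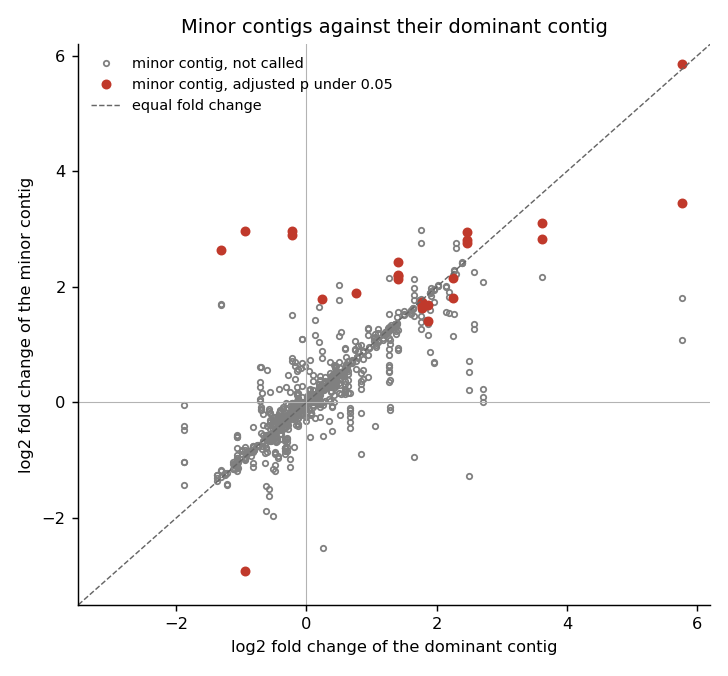
Log2 fold change of each of 891 minor contigs (vertical axis) against that of its dominant contig (horizontal axis), with the line of equal fold change; filled points are the 25 minor contigs called at an adjusted p under 0.05. Most points follow the line, and 4 called minor contigs lie high above dominant contigs with negative values.

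The size of the error sets what these differences can show. An approximate standard error, the absolute log2 fold change over the square root of the likelihood ratio, had a median of 0.48 over the members. A minor contig differed from its dominant one by more than the larger of both standard errors in 111 of 891 cases (12.5%), from 57 components. Of these, 54 were higher and 57 lower than the dominant contig. A difference of more than 2 times the larger standard error was found in 36 cases from 19 components. These standard errors carry the spread between libraries, which contigs of 1 component share, so the error of a difference within a component is not known. Where such differences are set beside the SE below, this is a description and does not measure their error.

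Components with even abundance also had even fold changes. In the 103 components with an abundance range under 0.25, the range of log2 fold changes had a median of 0.04 and a maximum of 1.00, and 309 of 316 minor contigs (97.8%) had the sign of the dominant one. In the other 146 components the median was 0.48 and the maximum 4.77, and 496 of 575 (86.3%) had the same sign. All 38 components whose fold changes spanned 1 or more were among these 146. So were 28 of the 32 called contigs and 13 of the 14 components with a call. These 146 components also held more contigs. Called were 28 of their 721 contigs, against 4 of 419 in the other 103 components and 2.64% of all 21744 contigs. Across the 249 components, the Pearson correlation of both ranges was 0.59 and the Spearman correlation 0.77, given as a description. Component size was not held constant in this. Of the 103 components 97 had 4 contigs, against 84 of the 146. The median range of log2 fold changes was 0.10 with 4 contigs and 0.94 with 6. The evenly split components were also more abundant, with a median summed CPM of 25.7 against 12.4.

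**Figure D4:**
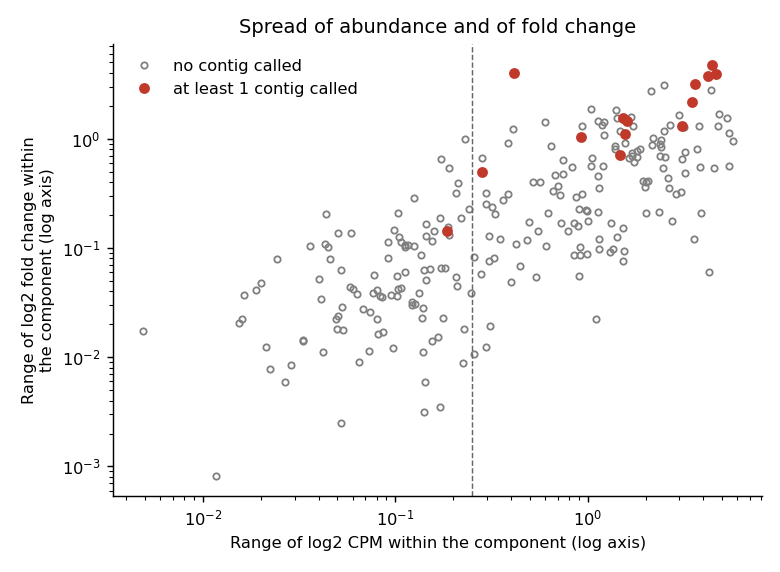
Range of log2 fold changes (vertical, log axis) against range of log2 CPM (horizontal, log axis) for the 249 components; filled points are the 14 components with a called contig. Left of the dashed line at 0.25, ranges of fold change stay at 1.00 or below.

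In 2 components all contigs were called, in the positive direction. The 4 contigs of comp493301_c0 had 9.76, 9.54, 9.29 and 8.02 CPM. Their log2 fold changes in the authors' deposited table were 2.46, 2.80, 2.76 and 2.96, with approximate SE of 0.50 to 0.55. The edgeR adjusted p-values ran from 1.68e-05 to 0.000108. Scarcer contigs of this component thus had fold changes at least as high as the dominant one, within the SE. In comp495802_c0 the 4 contigs had 4.09, 4.07, 3.61 and 3.60 CPM. The authors' deposited table lists log2 fold changes of 1.77, 1.74, 1.67 and 1.63 for them, with edgeR adjusted p from 0.00904 to 0.0289. Only this component combined a call with an abundance range under 0.25.

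In comp496421_c1 the minor contigs were called and the dominant one missed the threshold narrowly. Its 5 contigs had 17.5, 17.3, 16.6, 11.0 and 9.28 CPM. Log2 fold changes in the authors' deposited table were 1.40 for the dominant contig and 2.13, 2.21, 2.43 and 2.18 for the minor ones, with approximate SE between 0.44 and 0.56. The edgeR adjusted p was 0.0516 for the dominant contig and 0.000860 to 0.00953 for the others. In comp488331_c2 it was the reverse. There the fold changes were smaller in scarcer contigs, from 1.86 for the dominant contig at 9.01 CPM to 1.16 for the scarcest at 3.23 CPM in the authors' deposited table, and the 3 most abundant of its 5 contigs were called. In both components all contigs had positive fold changes.

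The largest fold changes were found in comp489381_c2, again all positive. Its dominant contig, at 11.0 CPM, held 54.0% of the reads, and the other 4 contigs had 4.37, 3.12, 1.36 and 0.504 CPM. In the authors' deposited table the log2 fold changes in that order were 5.76 (approximate SE 1.14), 3.45 (0.77), 5.85 (0.87), 1.08 (0.58) and 1.81 (0.78). The first 3 were called, with edgeR adjusted p of 7.02e-05, 0.000857 and 2.92e-08, and the last 2 were not, with 0.372 and 0.236. The dominant contig and seq5 differed by 4.68 on the log2 scale. All contigs of comp482561_c0 were positive as well. Those at 6.78, 6.31, 3.08 and 2.22 CPM had log2 fold changes of 3.62, 2.17, 2.82 and 3.10 in the authors' deposited table. The second, with an approximate SE of 0.88, was the only one not called (edgeR adjusted p = 0.194).

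The contigs of comp498408_c0 divided by abundance. Its 4 abundant contigs had 6.30, 6.09, 6.01 and 5.96 CPM and held between 22.8 and 24.2% of the reads each. The other 3 had 0.823, 0.646 and 0.248 CPM, or 3.16, 2.48 and 0.952%. In the authors' deposited table the abundant contigs had log2 fold changes of -1.31, -1.18, -1.18 and -1.29, with approximate SE of 0.52 to 0.54. The scarce ones had 2.63 (0.69), 1.71 (0.71) and 1.68 (0.77). All abundant contigs were thus negative and all scarce ones positive, and the SE bars of the groups do not overlap. Only the contig at 0.823 CPM, comp498408_c0_seq22, was called (edgeR adjusted p = 0.00905), while the other 6 had adjusted p between 0.218 and 0.277 and unadjusted p between 0.0163 and 0.0300. The difference between comp498408_c0_seq22 and the dominant contig was 3.94 on the log2 scale.

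A similar opposition among contigs of like abundance was found in comp501310_c0. The 4 contigs had 4.16, 3.78, 3.56 and 3.12 CPM. The second of them, comp501310_c0_seq3, stood at 2.96 on the log2 scale (approximate SE 0.77) in the authors' deposited table and was called, with an edgeR adjusted p of 0.00807. The other 3 had -0.94, -0.99 and -0.98 (0.47 to 0.48) in the authors' deposited table and were not called, at adjusted p of 0.324, 0.293 and 0.310. The contigs nearly balanced each other: summed over the component, the log2 fold change implied by the values was -0.11. Here the abundance range was 0.41 and the range of fold changes 3.95, the widest for any component with an abundance range under 2.

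Fold changes also differed among the contigs of 2 further components. The dominant contig of comp499767_c0, at 6.08 CPM and 66.3% of the reads, stood at -0.23 on the log2 fold scale (approximate SE 0.59) in the authors' deposited table. Its minor contigs at 2.10, 0.506 and 0.491 CPM had 1.52 (0.54), 2.97 (0.81) and 2.90 (0.80), and the last 2 were called, with edgeR adjusted p of 0.0153 and 0.0173. The fold change was larger in the scarcer contigs. In comp494582_c0 the dominant contig was the one called. The dominant contig at 10.4 CPM had 2.50 (approximate SE 0.69) in the authors' deposited table and an edgeR adjusted p of 0.0153, whereas the contigs at 9.56 and 7.45 CPM had 0.53 (0.43) and 0.22 (0.50). The scarcest, at 0.564 CPM, had 0.71 (0.46). The contig at 1.65 CPM went the other way, with -1.27 (0.57), and was not called (adjusted p = 0.254).

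**Figure D5:**
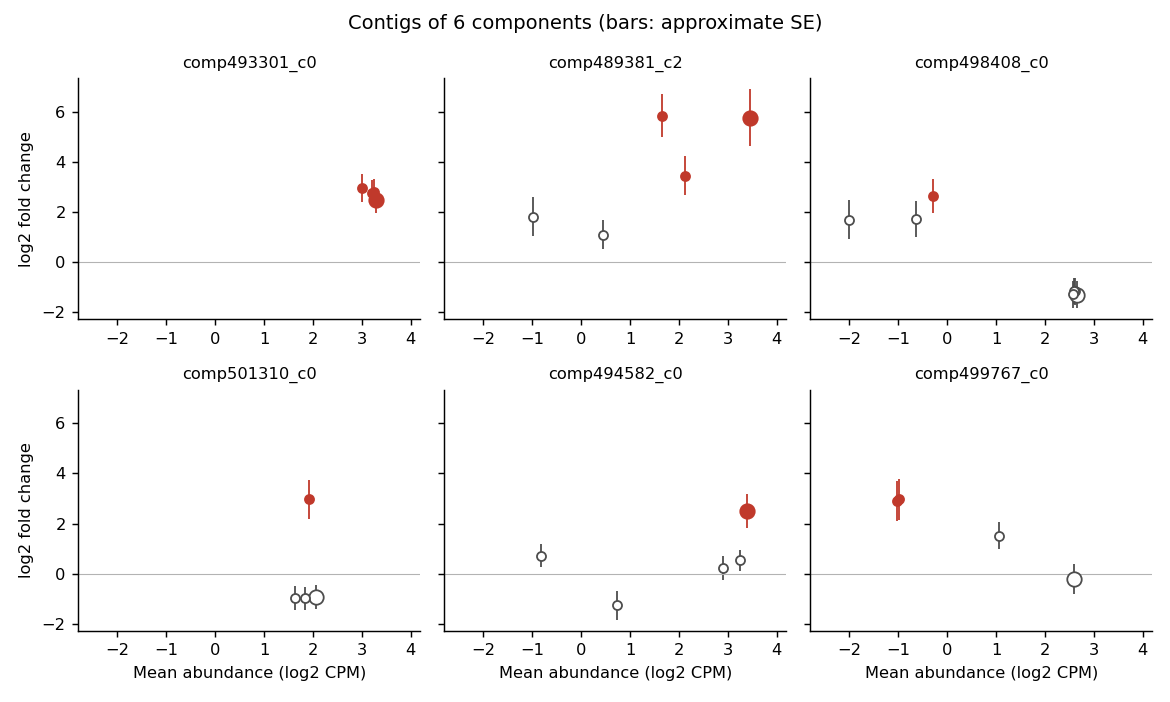
Log2 fold change (vertical axis, bars of 1 approximate SE) against mean abundance in log2 CPM for the contigs of 6 components; large symbols are dominant contigs and filled ones are called at an adjusted p under 0.05. In comp493301_c0 all contigs lie together between 2.46 and 2.96. In comp498408_c0, comp501310_c0, comp494582_c0 and comp499767_c0 they fall on both sides of 0.

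The only negative call was on a scarce contig. In comp494177_c0 the 5 more abundant contigs, from 4.99 down to 1.73 CPM, had log2 fold changes between -0.77 and -0.97 in the authors' deposited table, with approximate SE of 0.42 to 0.47 and edgeR adjusted p from 0.278 to 0.388. The sixth, comp494177_c0_seq11, had 0.445 CPM, or 2.91% of the reads, and a log2 fold change of -2.92 (0.70) at an adjusted p of 0.00282. It moved with the rest in sign and lay 1.97 below the dominant contig. In comp492636_c0 it was likewise a minor contig that was called: comp492636_c0_seq7, at 0.618 CPM, had 1.89 (0.55) in the authors' deposited table with an edgeR adjusted p of 0.0275, and the dominant contig at 2.13 CPM had 0.75 (0.44). Counted over the 14 components, the dominant contig was called in 7, and in the other 7 minor contigs alone were. No component had calls in both directions.

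From mean abundance and fold change, with equal weight for both conditions, an abundance in each condition was calculated for every contig. It is an approximation, since no values per sample are known. Another contig came out as the most abundant in each condition in 60 of the 249 components (24.1%). Most of these were near ties: in 42 of the 60 the dominant contig's share moved by less than 5 percentage points, and 28 had an abundance range under 0.25. The absolute move of the share had a median of 0.706 percentage points over all components. It was 10 points or more in 14 components, of which 7 also changed their leading contig.

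The largest move was in comp489381_c2, whose dominant contig took an implied 56.2% of the reads in the numerator condition and 17.0% in the denominator condition, where comp489381_c2_seq5 led. All its contigs were scarce in the denominator condition, with an implied 0.875 CPM for seq5, 0.732 for seq4 and 0.398 for the dominant contig. In comp494582_c0 the shares were 45.8 and 15.2%, with comp494582_c0_seq13 leading in the denominator condition. In comp499767_c0 they were 53.5 and 83.3%, and the same contig led in both. In comp478482_c0 the dominant contig held 47.9 and 20.2%. The second value is near the equal share of 20%, as its 5 contigs had an implied 0.312 to 0.411 CPM in the denominator condition. This component had no call, and its dominant contig was just outside the threshold at an edgeR adjusted p of 0.0508, with a log2 fold change of 2.72 (approximate SE 0.85) in the authors' deposited table. Its 3 scarcest contigs, at 0.425, 0.420 and 0.313 CPM, had 0.10, 0.23 and 0.01. In comp482561_c0 the shares were 38.9 and 22.5%. In comp501310_c0 they were 20.3 and 36.0%, and comp501310_c0_seq3 led in the numerator condition.

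The components with most contigs showed no called change. The 12 contigs of comp477667_c2 ranged from 1.05 to 0.401 CPM. All had positive log2 fold changes, from 0.14 to 0.94 in the authors' deposited table, with approximate SE of 0.55 to 0.82. The 11 contigs of comp482489_c1 ranged from 1.42 to 0.267 CPM. Of these, 10 had negative fold changes, and comp482489_c1_seq31 had 0.17 (0.54) in the authors' deposited table. The 10 contigs of comp490641_c0 ran from 1.26 to 0.876 CPM and were all negative, from -0.14 to -0.54, with SE of 0.42 to 0.49. The fold changes spanned 0.80, 0.83 and 0.40 in these 3 components. The span was above the approximate SE of most contigs in comp477667_c2 and of all contigs in comp482489_c1. In comp490641_c0 it was slightly below the SE of every contig.

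Abundance in comp489485_c0 and comp491647_c0 was stepped. In comp489485_c0 1 contig had 11.4 CPM, 4 had 6.65, 6.65, 6.42 and 6.42 CPM, and 4 had 0.491, 0.440, 0.432 and 0.268 CPM. The log2 fold changes of the middle 4 were between -0.78 and -0.79 in the authors' deposited table, that of the dominant contig was -0.33 (approximate SE 0.53), and none of the 9 was called. In comp491647_c0 4 contigs had 27.7, 27.4, 27.3 and 27.2 CPM, and 4 had 1.04, 0.920, 0.899 and 0.688 CPM. The abundant 4 had log2 fold changes from 0.47 to 0.51 in the authors' deposited table and the scarce ones 0.52, 1.15, 1.77 and 2.03, with SE rising from 0.57 to 0.94. None passed the test, and the 2 largest had edgeR adjusted p of 0.283 and 0.284.

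The most abundant components were not called either. The 4 contigs of comp482769_c0 had 299.7, 262.9, 219.8 and 169.0 CPM and log2 fold changes of 0.49, 0.34, 0.70 and 0.15 in the authors' deposited table, with approximate SE of 0.57 to 0.67. In comp488619_c0 the 4 contigs had 240.2, 239.5, 235.4 and 234.7 CPM, and their fold changes of -0.43, -0.43, -0.45 and -0.45 in the authors' deposited table differed by far less than their SE of 0.43. The 4 contigs of comp481140_c0 lay between 85.8 and 92.4 CPM and between -0.46 and -0.51. In comp464804_c0 abundance and fold change went down together, from 214.7 CPM and 0.52 to 108.6 CPM and 0.29 in the authors' deposited table, within the SE of 0.41 to 0.42. In comp490715_c0 the dominant contig at 175.4 CPM had 0.06 (SE 0.43) and the other 3, at 139.1, 138.7 and 136.5 CPM, had -0.21, -0.20 and -0.19. These 3 count as opposite in sign, although the difference is smaller than the SE.

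Summed over its contigs, a component had an implied log2 fold change with a median of 0.09 and quartiles of -0.28 and 0.51. It was at least 1 in 41 components and -1 or less in 8.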

How the data were processed

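Whole pteropods from 6 jars, 3 per pH, were sequenced as 100 bp paired-end reads, with an average of 63000000 reads per sample per the labels' protocols. The submitters' processing notes name Bowtie2 and edgeR, with no version. The assembler, filters and handling of repeat runs were not stated. The authors deposited 1 table with 5 columns and no values per sample. Per the file headers, the authors' values are a log2 fold change, a mean abundance as log2 CPM, a likelihood ratio (used as a score), a p-value and an adjusted p-value. Depth per sample is therefore unknown, and no counting interval is given. As the design provided for a table without counts, no new test between conditions was made.

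From the table, CPM was taken back from log2 CPM, and ranges, shares, signs and an approximate SE were computed per component (Python 3.11.15, pandas 2.3.3, SciPy 1.17.1). The computation was tested on simulated data with 249 components, and shares and signs were recovered in 249. The simulated abundances and fold changes carried no noise, so this checks the arithmetic only. Named components were the 5 with most contigs, the 5 with the highest summed CPM, the 12 called components of lowest adjusted p, those with calls in both directions, the 8 with the largest opposition at an absolute log2 fold change of at least 1 (2 qualified), and the 6 with the largest move of the dominant share. Components picked for extremes were chosen after their values were seen. The members and lists were chosen with earlier results of these data known. Alternatives concerned thresholds, component size and definition, low abundance, the choice of dominant contig and repeated values. No sequence of a contig was used here.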

Additional observations from a re-analysis of the deposited data

How the results depend on the processing

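The 32 calls among the members became 17 at an adjusted p under 0.01, 9 under 0.001, 6 after Bonferroni adjustment, and 6 (from 2 components) when likelihood ratios were scaled by 0.545, the ratio of samples to runs. They were 53 (49 positive) with components of 3 or more contigs, 13 (12 positive) with 5 or more, and 14 when components were counted. The median abundance range of 0.43 was 1.44 with 5 or more contigs, 0.72 with components joined by comp number, 0.17 at 1 log2 CPM or more, and 0.19 when the SD replaced it. The median dominant share of 26.5% was 36.0% with 3 or more contigs, 24.2% with 5 or more, 27.2% with joined components, 26.1% at 1 log2 CPM or more, and 27.7% within the 4 most abundant contigs. The share of minor contigs with the dominant sign, 90.3%, was 94.4% for minor contigs of at least 1 log2 CPM, 97.0% and 97.6% where both absolute log2 fold changes were at least 0.5 and 1, 88.0% with 3 or more contigs, 87.1% with 5 or more, 87.8% with joined components, and 86.3% in components with an abundance range of 0.25 or more. Of the 60 components with another leading contig in each condition, 7 had a share move of at least 10 points and 32 a range of 0.25 or more. The 103 components of nearly equal abundance were 51 at a limit of 0.1, 199 with 3 or more contigs and 6 with 5 or more. Of 41 recomputed values, the other 13 stayed within 1.5 times the count or within the 95% interval. For the sign share that interval was 88.2 to 92.1%. It counts each minor contig as independent, which contigs of 1 component are not, so it is likely too narrow. No setting was run that could change a sign of a fold change except centring, which gave 89.5%. Alternatives on nearly equal abundance, repeated values and counted components were chosen after seeing the data. No paired analysis was possible because values of single samples were not part of the table; left-out replicates, normalization and count filters were not run for the same reason.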

Other observations

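In 3 components outside the naming rule, chosen after their values were seen, no contig was called. In comp475163_c1, the contig seq2 at 2.31 CPM stood at -2.51 on the log2 fold scale (approximate SE 0.91, edgeR adjusted p = 0.129) in the authors' deposited table, which lay 2.76 below its dominant contig. In comp485241_c0 all 7 contigs were negative, from -1.87 (1.13) for the dominant contig at 2.74 CPM to -0.04 (0.84) for comp485241_c0_seq4 at 1.16 CPM in the authors' deposited table, with edgeR adjusted p from 0.450 to 0.993. In comp505439_c0, the most evenly split component, the 4 contigs had log2 fold changes of 1.64, 1.63, 1.63 and 1.62 (approximate SE 0.61) in the authors' deposited table, with adjusted p of 0.145 to 0.151.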
